A study of Mus musculus with 2 samples.

Results

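The collagen chains are the polypeptides that fold in threes into collagen molecules, and every chain gene of the mouse whose symbol reads Col, a number, the letter a and a number was followed across the cell types of the aorta. The pattern found 44 of the 32285 genes counted, and all 44 are accounted for here. The cells came from the aortas of ApoE-/- mice aged 20 weeks, in 2 samples with 1 per group, one labelled HFD and one labelled MSC_ITGB3. The series text describes HFD-fed mouse models, some of which received MSC_ITGB3, and its stated interest is the heterogeneity of aortic cells. Both groups share the loss of apolipoprotein E, a carrier of plasma lipoproteins whose absence leads to atherosclerotic plaques. The labels do not say how many animals were pooled, of which sex, or when MSC_ITGB3 was given. The counts came as 2 droplet libraries told apart by a barcode suffix, which no label ties to a sample. They are called library 1 and library 2, and each pair of values gives library 1 first. Which of them is HFD and which MSC_ITGB3 is not known, so a difference between them has no known direction between the groups. With 1 sample per group, it also cannot be told apart from any other difference between the samples.

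Collagens are the main proteins of the extracellular matrix. Fibrillar collagens form the load-bearing fibres of the arterial wall, network collagens form the basement membranes under endothelium and around muscle and nerve cells, and the remaining families sit on fibres, span membranes or link the matrix to cells. Each molecule holds 3 chains, so a cell must make the partners of a molecule together, and the chains are hydroxylated, folded, trimmed and cross-linked by dedicated enzymes. In plaques, smooth muscle cells can take on fibroblast-like or cartilage-like gene programmes, and cartilage has its own set of collagens.

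Droplets were read by the 3' ends of their transcripts, each tagged with a unique molecular identifier (UMI), so a level is a number of tagged molecules and is not divided by gene length. A barcode, standing for 1 droplet, was kept at 3000 or more UMIs with at most 20% from mitochondrial genes, which left 6332 and 6540 barcodes with medians of 8746 and 6031 UMIs. It was assigned to a cell type, called a gate, when 3 or more of 8 classic markers of that type were on, at least 2 more than for any other list, and no collagen is a marker. The gates took 4664 (73.7%) and 4627 (70.7%) of those barcodes, namely 1644 and 2611 smooth muscle, 1720 and 1499 fibroblast, 12 and 42 chondrocyte, 888 and 180 endothelial, 344 and 269 macrophage, and 56 and 26 Schwann barcodes. All 8 markers of each gate stood at 20 or more counts per 1000000 summed UMIs of the gate (CPM) in that gate in both libraries. The gates were set by these same markers, so this follows largely from the selection and is no separate support for the cell types. Markers of another type were present too: the summed fibroblast list was 4836 and 3851 CPM in the smooth muscle gate and 11450 and 7563 CPM in the chondrocyte gate, against 19070 and 19470 CPM in the fibroblast gate. A further 558 and 884 barcodes carried both the smooth muscle and the fibroblast list and were left ungated, and 17 barcode sequences were kept in both libraries. Intervals in brackets are exact at 95% and cover counting error only, since there is 1 library of each kind and no replicate, and no p-value was computed.

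Chondrocyte barcodes devoted the largest part of their RNA to collagen and macrophages the smallest. The 44 chains took 4.006% (3.921 to 4.093) and 6.156% (6.11 to 6.203) of the UMIs of the chondrocyte gate. Fibroblasts followed at 2.287% (2.28 to 2.293) and 1.943% (1.936 to 1.951), and smooth muscle at 1.223% (1.219 to 1.228) and 1.258% (1.254 to 1.262). The Schwann gate held 0.4579% and 0.4462%, the endothelial gate 0.4013% and 0.3948%, and the macrophage gate 0.1038% and 0.2023%. Barcodes of 10 to 100 UMIs, taken here as free RNA outside cells, carried 1.034% (1.021 to 1.047) and 1.739% (1.719 to 1.76). The macrophage, endothelial and Schwann gates thus lay below the free RNA of their library, and the fibroblast and chondrocyte gates above it. The smooth muscle gate lay above it in library 1 (1.223% against 1.034%) and below it in library 2 (1.258% against 1.739%). A minority of barcodes carried much of the collagen: the median barcode devoted 1.015% and 1.172% in the fibroblast gate and 0.5392% and 0.6703% in the smooth muscle gate, well under the summed values, while the highest barcode reached 11.59% and 14.3% among fibroblasts and 6.75% and 12.97% in smooth muscle. In endothelium the median, 0.3297% and 0.3257%, lay close to the sum.

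**Figure D1:**
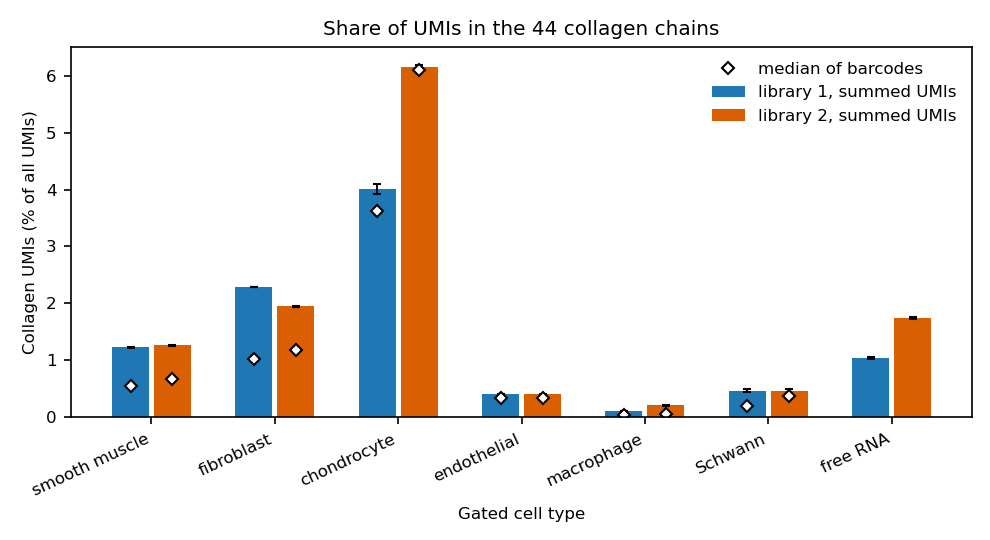
Share of all UMIs that fell in the 44 collagen chains, in percent, for the 6 gated cell types and for free RNA. Bars are summed UMIs of library 1 (blue) and library 2 (orange) with exact 95% intervals, and diamonds are the medians of single barcodes, which sit below the bars in the smooth muscle and fibroblast gates.

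Most collagen chains kept their cell type from one library to the other. Of the 44 chains, 32 reached 20 CPM in at least 1 gate of both libraries, and 26 of these 32 (81.2%) were highest in the same gate in both, where 67.4% of all genes at that level were. A group of 10 chains stood at least 4-fold above the next gate in both libraries, 31.2% of the 32, against 10.8% of all genes. The chondrocyte gate was highest for 14 of the 32, fibroblasts for 5, smooth muscle for 3, endothelium for 2, Schwann barcodes for 2 and macrophages for 0. Of all genes at that level, 7.53% were highest in the chondrocyte gate in both libraries, 5.27% in the fibroblast gate, 7.29% in smooth muscle, 14.8% in endothelium, 18% in Schwann barcodes and 14.5% in macrophages. The 6 chains whose highest gate was not the same were Col1a1, Col1a2, Col5a2, Col8a1, Col15a1 and Col20a1, each with the chondrocyte gate highest in 1 library. Some of these leads lay within counting error. They were those of Col1a2 in library 1 (1.02-fold, 0.9627 to 1.081) and, in library 2, of Col5a2 (1.064-fold, 0.9889 to 1.145) and Col20a1 (2.863-fold, 0.9307 to 14.3). Among the 26 chains that kept their gate, leads within counting error were those of Col4a2 and Col4a4 in library 2. In library 1 they were those of Col4a5 (1.271-fold over chondrocytes, 0.878 to 1.915), Col12a1 and Col16a1.

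**Figure D2:**
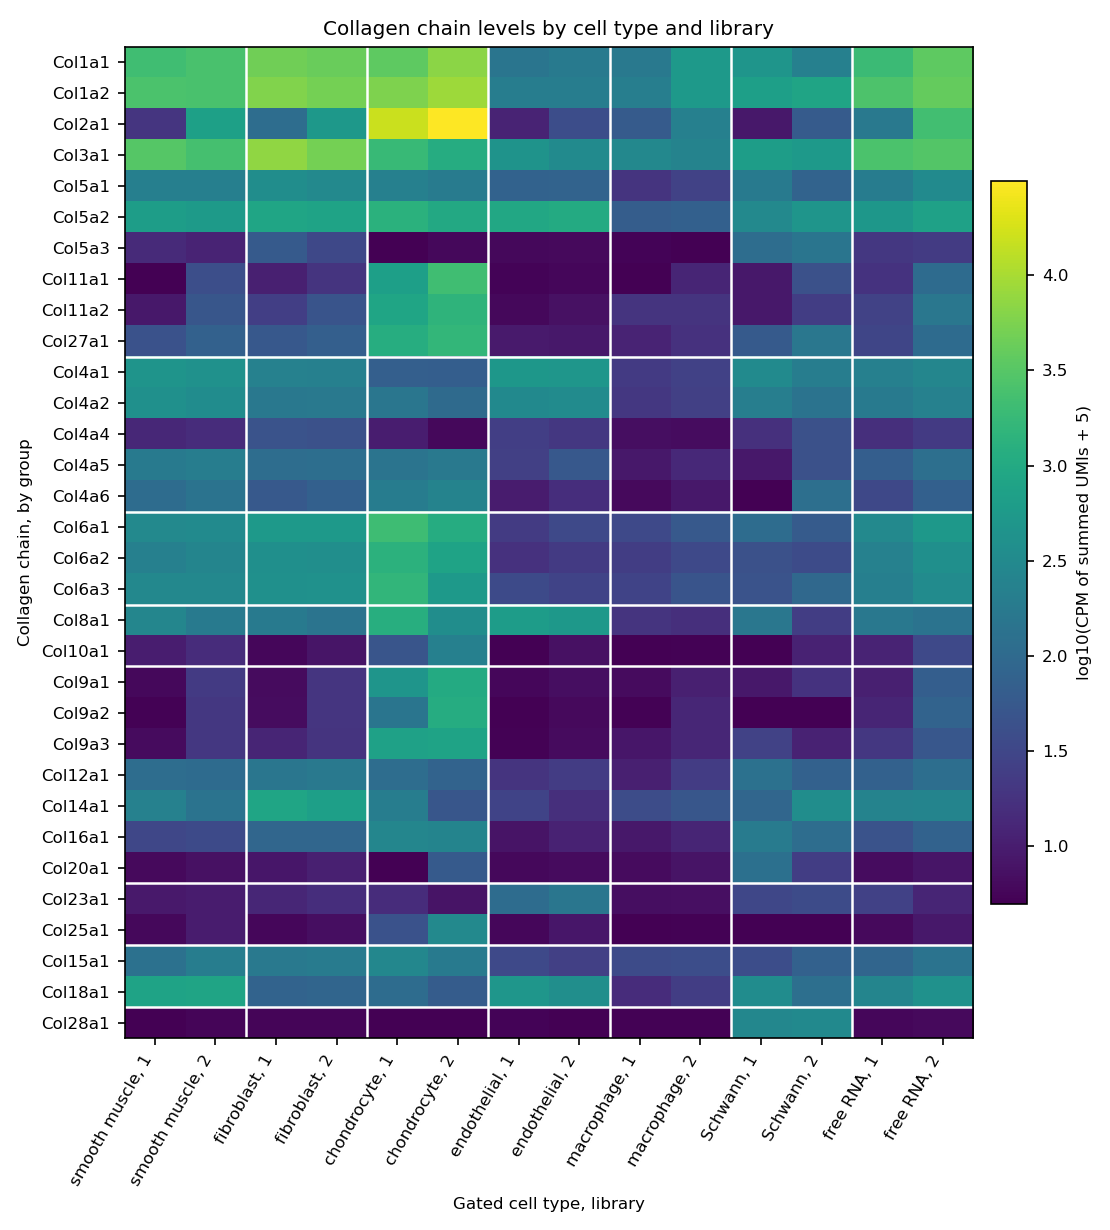
Levels of the 32 chains that reached 20 CPM in some gate of both libraries, as log10 of CPM plus 5 (colour), with chains in rows by structural group and cell types in columns, each with library 1 and library 2. The cartilage chains (Col2a1, Col9a1, Col9a2, Col9a3, Col11a1, Col11a2) are bright in the chondrocyte columns, Col28a1 in the Schwann columns, and Col18a1 in the smooth muscle and endothelial columns.

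Among fibrillar chains, type III collagen was highest in fibroblasts, and type I collagen was higher in fibroblasts and chondrocytes than in smooth muscle. Col3a1, the single chain of type III collagen, which makes fine, extensible fibres, stood at 7336 and 5063 CPM in fibroblasts, at 3049 and 2394 CPM in smooth muscle and at 1798 and 1096 CPM in chondrocytes. It was 2.406-fold (2.384 to 2.428) higher in fibroblasts than in smooth muscle in library 1. Col1a1 and Col1a2, which form the type I collagen of stiff fibres, were at 4671 and 4238 CPM and at 5918 and 4962 CPM in fibroblasts. In smooth muscle they stood at 2134 and 2515 CPM and at 2598 and 2501 CPM. In chondrocytes Col1a1 was 3531 and 6763 CPM and Col1a2 was 5804 and 8683 CPM, so the chondrocyte gate led for both chains in library 2. In library 1 the fibroblast gate led for Col1a1, while for Col1a2 the 2 gates did not differ beyond counting error (1.02-fold, 0.9627 to 1.081). That order rested on 12 chondrocyte barcodes. In a wider chondrocyte gate, where Dcn and Lum were not counted against a barcode, library 1 had 27 barcodes. Col1a1 stood at 7573 CPM and Col1a2 at 9699 CPM in it, both above the fibroblast level. Nearly every fibroblast carried type I collagen: 98.7% and 98.8% of fibroblast barcodes had a Col1a2 UMI after each barcode was thinned to 3000 UMIs (99.7% and 99.9% before thinning), against 23.0% and 39.0% of macrophages (48.3% and 66.2%), a type not known for making it. Median depths were 8444.5 and 6478 UMIs in the fibroblast gate and 11074.5 and 8609 UMIs in the macrophage gate.

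The amount per fibroblast was uneven. Col3a1 had a variance of 37.0 and 23.2 times its mean over thinned fibroblast barcodes and Col1a2 12.8 and 10.6 times, where counting error alone gives 1. This measure grows with the level of a gene, so it does not rank the chains. The 1% of fibroblast barcodes with most Col3a1 held 16.8% and 14.6% of its UMIs.

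Endothelium carried one chain of type V collagen, which sets the width of type I fibres, at or above the fibroblast level and little of its partner. Col5a2 stood at 925.6 CPM (909.7 to 941.8) and 1047 CPM (1007 to 1087) in endothelium. Its level was 834.2 and 795.7 CPM in fibroblasts, 639.2 and 571.8 CPM in smooth muscle and 1312 and 984.1 CPM in the chondrocyte gate. Col5a1, which supplies most of the chains of a type V molecule, was at 72.08 and 75.23 CPM in endothelium, where fibroblasts had 361.2 and 304.5 CPM and smooth muscle 211.7 and 208.8 CPM. There were 0.0779 (0.0729 to 0.0831) and 0.0719 (0.0618 to 0.0832) UMIs of Col5a1 for each UMI of Col5a2 in endothelium, against 0.433 and 0.383 in fibroblasts and 0.331 and 0.365 in smooth muscle. The chondrocyte gate lay between, at 0.17 and 0.187. Capture at the 3' end can differ between genes, so the ratio itself is no count of protein chains, but it can be set side by side across gates. After thinning, 77.7% and 78.3% of endothelial barcodes had a Col5a2 UMI (91.7% and 93.3% before), against 12.2% and 18.2% of macrophages (20.1% and 26.0%). Free RNA held 500.8 and 730.8 CPM of Col5a2, below the endothelial level in both libraries, and 188.6 and 320.6 CPM of Col5a1, above it.

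Col3a1 and Col5a2 lie next to each other on chromosome 1 of GRCm38, at chr1:45311538-45349706 on the plus strand and chr1:45374321-45503282 on the minus strand, with their 3' ends facing and 24614 bases between them. They did not keep a common ratio: Col3a1 had 8.79 and 6.36 UMIs per UMI of Col5a2 in fibroblasts, 4.77 and 4.19 in smooth muscle, 1.37 and 1.11 in chondrocytes and 0.476 and 0.309 in endothelium.

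**Figure D3:**
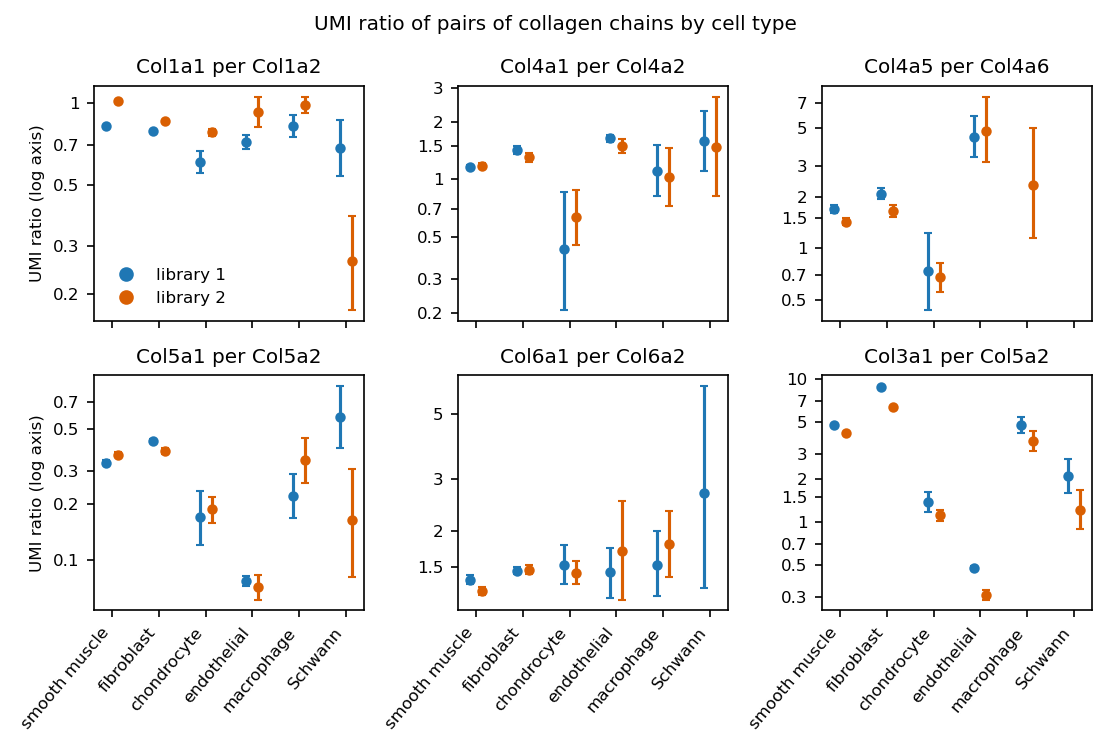
UMI ratio of 6 pairs of chains by cell type on log axes, for library 1 (blue) and library 2 (orange) with exact 95% intervals; gates with fewer than 10 UMIs of either chain have no point. Col6a1 per Col6a2 varies little between smooth muscle, fibroblast and chondrocyte gates, while Col5a1 per Col5a2 and Col3a1 per Col5a2 are lowest in endothelium.

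The third type V chain had another place. Col5a3, a chain made by Schwann cells and some connective tissue cells, was highest in the Schwann gate at 108.1 and 146.4 CPM. Fibroblasts held 53.85 and 28 CPM, a library 1 level 1.923-fold (1.713 to 2.162) above library 2, and endothelium had 1.014 and 1.176 CPM.

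In all, 9 chains lay at least 4-fold above every other gate in the chondrocyte gate of both libraries: Col2a1, Col9a1, Col9a2, Col9a3, Col10a1, Col11a1, Col11a2, Col25a1 and Col27a1. Of these, 6 build the cartilage fibre, in which type II collagen is the core, type XI collagen the template and type IX collagen the surface coat. Col2a1 (chr15:97975602-98004695, minus strand), the only chain of type II collagen, reached 15620 CPM (15080 to 16170) and 31020 CPM (30680 to 31360). The next gate held 107.4 CPM in library 1, in fibroblasts, and 709.9 CPM in library 2, in smooth muscle. Every barcode of the gate, 12 of 12 and 42 of 42, had a Col2a1 UMI after thinning.

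Type XI and type IX chains followed. Col11a1 stood at 678.4 and 2123 CPM and Col11a2 at 831.9 and 1468 CPM in the chondrocyte gate. Col9a1, Col9a2 and Col9a3 stood at 470.4 and 1037 CPM, 143.6 and 1121 CPM, and 742.8 and 794.7 CPM there. Col27a1, a fibrillar chain of growth-plate cartilage, was at 1139 and 1635 CPM, and the transmembrane chain Col25a1 at 39.62 and 297.8 CPM. Col10a1, the collagen of hypertrophic chondrocytes at the edge of mineralising cartilage, was at 44.57 and 218.7 CPM. The last of these rested on few cells: 1 barcode held 77.8% and 62.1% of the Col10a1 UMIs of the gate, and 1 barcode held 87.5% of the Col25a1 UMIs in library 1. For Col2a1 and Col11a2 the richest barcode held 33.6% and 41.1% in library 1 and 8.55% and 8.18% in library 2.

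The chondrocyte gate differed between libraries in many chains, and rested on few barcodes. Of 29 chains at 20 CPM there, 10 were at least 1.5-fold higher in library 2 and 9 at least 1.5-fold higher in library 1, 34.5% and 31.0%, where 22.5% and 22.7% of all genes of the gate were. Col9a2 was 7.804-fold (5.404 to 11.71) higher in library 2 and Col11a1 3.13-fold (2.633 to 3.747). Col1a1, a main fibroblast chain, was 1.916-fold (1.773 to 2.072) higher in library 2 as well. Type VI chains, Col3a1 and Col14a1 went the other way, with Col6a3 2.914-fold (2.53 to 3.353) and Col14a1 4.317-fold (2.759 to 6.725) higher in library 1. In library 1, 1 of the 12 barcodes held 63.3% of the Col6a3 UMIs. The summed fibroblast list was also higher in library 1 (11450 against 7563 CPM), with 6 and 3 of its 8 markers at 20 CPM or more. A list of osteoblast markers was higher in library 2 (29.71 against 516.4 CPM), with 0 and 4 of its 5 markers at that level. The part of these lists in the differences between libraries was not tested. When Dcn and Lum were not counted against a barcode, the gate grew to 27 and 95 barcodes and Col2a1 stood at 9868 and 29410 CPM. In this wider gate Col1a1 differed less between libraries, at 7573 and 8296 CPM. Col11a1 stayed higher in library 2, at 374.7 and 1887 CPM, and Col6a3 in library 1, at 1485 and 685.3 CPM.

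The start regions of 3 of these chains are shown, chosen after their motifs had been seen, because between them they hold all 4 motifs searched and their windows contain no exon. The bases are the 250 upstream of the RefSeq start on GRCm38.p6, read on the strand of the gene, and capitals mark 4 short motifs on either strand, so that some appear as their reverse complement. The TATA box was searched as TATAAA. The second motif, named after its letters, was CCAAT. The GC box was searched as GGGCGG. The core of sites for SOX factors, which include Sox9, the master regulator of cartilage, was searched as AACAAT and also as ACAAAG. No marked motif overlaps another in the sequences shown. Col10a1 covers chr10:34389731-34389980, Col11a1 chr3:114030290-114030539 and Col11a2 chr17:34038888-34039137, all on the plus strand.
Col10a1: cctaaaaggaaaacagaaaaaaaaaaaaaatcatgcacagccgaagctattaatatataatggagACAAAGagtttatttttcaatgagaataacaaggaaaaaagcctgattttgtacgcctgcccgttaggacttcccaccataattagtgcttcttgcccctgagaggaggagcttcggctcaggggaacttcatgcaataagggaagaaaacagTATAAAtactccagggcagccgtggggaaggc
Col11a1: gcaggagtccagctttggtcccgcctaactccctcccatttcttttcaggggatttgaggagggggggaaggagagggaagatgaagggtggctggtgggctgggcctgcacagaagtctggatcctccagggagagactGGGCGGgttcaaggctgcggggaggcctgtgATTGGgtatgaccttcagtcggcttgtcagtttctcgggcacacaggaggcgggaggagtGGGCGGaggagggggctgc
Col11a2: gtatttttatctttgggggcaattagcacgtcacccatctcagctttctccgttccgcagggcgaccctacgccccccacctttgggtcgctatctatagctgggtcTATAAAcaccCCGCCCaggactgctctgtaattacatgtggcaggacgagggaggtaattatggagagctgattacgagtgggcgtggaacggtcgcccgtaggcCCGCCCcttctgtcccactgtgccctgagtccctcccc
The contents of the 3 windows differed. Col10a1 had 41.6% G and C with a TATA box and a SOX core, Col11a1 had 62.4% with 2 GC boxes and a CCAAT box, and Col11a2 had 57.6% with 2 GC boxes and a TATA box. Among the other chains of this gate, the windows without an exon were those of Col25a1 with 60.4% G and C, 2 GC boxes and a CCAAT box, of Col27a1 with 59.6% and 1 GC box, and 1 of Col9a1 with 43.6% and none of the motifs. Over all 38 RefSeq windows of 35 chains, 5 held the TATA box (13.2%, against 12.4% of 32851 windows of all genes), 13 the CCAAT box (34.2% against 33.8%), 22 the GC box (57.9% against 32.7%) and 4 a SOX core (10.5% against 24%). A match to so few letters is a description of the window and marks no bound site.

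Basement membrane chains were shared between smooth muscle and endothelium. Col4a1 and Col4a2, which form the common type IV molecule of all basement membranes, stood at 456.8 and 404.3 CPM and at 394.5 and 344.6 CPM in smooth muscle. In endothelium Col4a1 was at 508.5 CPM (496.7 to 520.5) and 491.8 CPM (464.9 to 519.7) and Col4a2 at 310.8 and 328.8 CPM, so Col4a1 was highest in endothelium in both libraries. Col4a2 was 1.269-fold (1.224 to 1.317) higher in smooth muscle than in endothelium in library 1 and 1.048-fold (0.9763 to 1.126) in library 2, the latter within counting error. Fibroblasts held 229.5 and 217.6 CPM of Col4a1. The UMI ratio of Col4a1 to Col4a2 was 1.64 (1.57 to 1.7) and 1.5 (1.37 to 1.63) in endothelium, 1.42 and 1.3 in fibroblasts and 1.16 and 1.17 in smooth muscle, although both genes start from one stretch of chromosome 8, where their annotated spans overlap by 22 bases.

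The 4 other type IV chains come as 2 more pairs of neighbouring genes that start side by side and run apart. Col4a5 and Col4a6, partners in a type IV molecule of smooth muscle basement membranes, were at 176.2 and 194.9 CPM and at 103.8 and 136 CPM in smooth muscle. Fibroblasts held 106.8 and 113.1 CPM and 51.4 and 68.52 CPM of them. In the chondrocyte gate Col4a6 was higher than anywhere else, at 188.2 and 243.1 CPM, with Col4a5 at 138.7 and 165 CPM. In endothelium both were low, at 21.23 and 51.33 CPM and at 4.781 and 10.58 CPM. There were 1.7 and 1.43 UMIs of Col4a5 per UMI of Col4a6 in smooth muscle and 0.737 (0.436 to 1.23) and 0.679 (0.555 to 0.828) in chondrocytes. The spans of these genes face away from each other 1308 bases apart on chromosome X.

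Col4a3 and Col4a4, known for the filtration barrier of the kidney, were low in the aorta. Col4a4 stood at 41.17 and 38.47 CPM in fibroblasts, at 11.58 and 38.19 CPM in Schwann barcodes, at 20.43 and 15.67 CPM in endothelium and at 8.182 and 9.989 CPM in smooth muscle. Col4a3 stood at 22.08 and 18.46 CPM, 10.79 and 4.31 CPM, and 6.441 and 8.357 CPM in fibroblasts, endothelium and smooth muscle. Fibroblasts and Schwann barcodes did not differ in Col4a4 beyond counting error in library 2 (1.007-fold, 0.4598 to 2.757). Col4a4 starts on the minus strand and Col4a3 on the plus strand, and only 71 bases separate their spans. They are shown on the Col4a4 strand (chr1:82586850-82586920, GRCm38.p6, from the RefSeq window of Col4a4) because they are all that lies between the annotated starts of the pair.
Col4a4 to Col4a3: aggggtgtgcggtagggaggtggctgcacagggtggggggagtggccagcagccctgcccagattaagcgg
None of the 4 kinds of motif lies in these bases, of which 69.0% are G or C. The ratio of Col4a3 to Col4a4 UMIs was 0.536 (0.477 to 0.602) and 0.48 (0.412 to 0.557) in fibroblasts and 0.787 (0.63 to 0.982) and 0.837 (0.695 to 1.01) in smooth muscle.

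The multiplexins, proteoglycan collagens that stand in or beside basement membranes, differed in their cell types. Col18a1, whose tail is the source of endostatin, was at 780.2 CPM (768.8 to 791.7) and 805.3 CPM (794.3 to 816.3) in smooth muscle. Endothelium held 483.2 and 371.9 CPM and fibroblasts 74.31 and 80.26 CPM. After thinning, 79.7% and 80.5% of smooth muscle barcodes had a Col18a1 UMI (94.8% and 91.8% before), against 20.5% and 20.9% of fibroblasts (39.5% and 35.6%). Free RNA carried 261.4 and 416.6 CPM of it, above the fibroblast level. Col15a1, found where basement membranes meet fibres, was at 125.9 and 197.6 CPM in smooth muscle and at 167.7 and 184.8 CPM in fibroblasts, and at 29.63 and 21.55 CPM in endothelium.

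Type VI collagen, the beaded filament that ties cells to fibres, was highest in chondrocytes, then fibroblasts, then smooth muscle for all 3 of its main chains. Col6a1 stood at 567.3 and 538.7 CPM in fibroblasts, 300.5 and 325.4 CPM in smooth muscle and 17.89 and 29.39 CPM in endothelium. Col6a2 was at 388.8 and 365.8 CPM, 220.5 and 263.4 CPM, and 12.46 and 17.24 CPM in those gates. Col6a3 was at 389.6 and 409.2 CPM, 290.2 and 287.7 CPM, and 30.5 and 23.51 CPM. In the chondrocyte gate Col6a1 was at 2065 and 1120 CPM. The ratio of Col6a1 to Col6a2 stayed between 1.24 and 1.53 in the smooth muscle, fibroblast and chondrocyte gates of both libraries. The later members Col6a5 and Col6a6 were under 20 CPM and highest in fibroblasts, at 6.413 and 14.78 CPM and at 10.82 and 16.97 CPM.

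Endothelium held more of a short-chain and a transmembrane collagen than smooth muscle or fibroblasts did. Col8a1, a network collagen of the inner vessel wall, was at 620.8 and 521.1 CPM in endothelium, 269.8 and 168.8 CPM in smooth muscle and 175.7 and 141.4 CPM in fibroblasts. In the chondrocyte gate it was 1193 and 359.3 CPM, with 30.7% and 51.6% of those UMIs in 1 barcode. Its partner Col8a2 was nearly absent, at 0.2898 and 0.7837 CPM in endothelium and 5.923 and 8.203 CPM in fibroblasts, its highest gate. Col23a1, a transmembrane collagen, stood at 103.2 and 147.3 CPM in endothelium and at 27.03 and 31.83 CPM in Schwann barcodes, the next gate. It had a UMI in 22.6% and 29.4% of thinned endothelial barcodes (50.8% and 53.9% before thinning), against 1.82% and 1.61% of smooth muscle barcodes (4.87% and 3.83%), whose median depths were 11779.5 and 7934 UMIs where endothelium had 12093 and 11295. Markers of lymphatic endothelium were on in 21 and 5 of the endothelial barcodes.

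The fibre-associated collagens with interrupted helices, which coat fibrils and join them to the surrounding matrix, were highest in fibroblasts for 2 chains, Col12a1 and Col14a1. Col14a1 was at 831.7 and 677.4 CPM in fibroblasts, 226.9 and 136.5 CPM in smooth muscle and 23.62 and 10.97 CPM in endothelium. Col12a1 was closer between them, at 151 and 166.5 CPM in fibroblasts and 107 and 102.4 CPM in smooth muscle. Schwann barcodes held 123.6 CPM of it in library 1, within counting error of the fibroblast level (1.222-fold, 0.864 to 1.79), and 70.02 CPM in library 2. Col16a1 was at 83.17 and 85 CPM in fibroblasts, 27.5 and 30.47 CPM in smooth muscle and 185.3 and 108.2 CPM in Schwann barcodes, with the chondrocyte gate highest at 267.4 and 253.8 CPM. The lead of the chondrocyte gate over Schwann barcodes was within counting error in library 1 (1.443-fold, 0.9598 to 2.175) and 2.346-fold (1.437 to 4.089) in library 2. Col19a1 did not reach 20 CPM but was found almost entirely in smooth muscle, at 15.28 and 19.32 CPM, against 0.1958 and 0.4243 CPM in fibroblasts.

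One chain set the Schwann gate apart. Col28a1, a collagen known from nodes of Ranvier and the surroundings of peripheral glia, was at 281.9 CPM (220.9 to 354.4) and 311.9 CPM (230.7 to 412.3) there, from 73 and 49 UMIs. The next gate, fibroblasts, held 0.6364 and 0.7072 CPM, and free RNA 0.8832 and 1.298 CPM. The 56 and 26 Schwann barcodes had a Col28a1 UMI in 53.6% and 57.7% of cases after thinning (57.1% and 76.9% before), against 0.233% and 0.0% of fibroblasts (0.64% and 0.6%), and median depths of 3865.5 and 4801 UMIs. The Schwann gate also held 324.3 and 197.3 CPM of Col4a1, and Col20a1 at 119.7 and 19.1 CPM, 1 barcode of library 1 giving 41.9% of the latter. Its barcodes were few and shallow, and 22 of 28 chains differed at least 1.5-fold between libraries, 11 each way (39.3% and 39.3%, where 26.6% of all genes were higher in library 2 and 23.4% in library 1). In the gate the summed neutrophil list was 1954 CPM in library 1, with 3 of its 5 markers at 20 CPM or more, and 0 in library 2. The summed fibroblast list was 185.3 and 4316 CPM, with only 2 of its 8 markers at 20 CPM or more in each library. The part of these lists in the differences between libraries was not tested.
The 250 bases upstream of Col28a1 are shown as the start region of the chain with the narrowest pattern (chr6:8192618-8192867, minus strand, RefSeq on GRCm38.p6, no exon inside, marked as above). They hold 40.4% G and C and 1 SOX core.
Col28a1: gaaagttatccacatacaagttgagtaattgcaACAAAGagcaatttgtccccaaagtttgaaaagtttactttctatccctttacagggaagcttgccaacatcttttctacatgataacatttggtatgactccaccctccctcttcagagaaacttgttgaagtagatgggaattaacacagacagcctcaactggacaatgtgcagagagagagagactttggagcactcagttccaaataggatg

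Macrophages held no chain of 20 CPM or more at a level above free RNA. Among chains at 20 CPM or more in the gate, 0 in either library exceeded their level in free RNA, and chains at that level in free RNA had a median macrophage level of 8.82% and 9.24% of it. Col1a1 was at 168.2 and 535.2 CPM and Col3a1 at 289 and 246.7 CPM, against 1905 and 3536 CPM and 2603 and 2968 CPM in free RNA. By contrast 20 and 13 chains exceeded free RNA in fibroblasts and 22 and 22 in chondrocytes. Smooth muscle stood between, with 14 and 7 chains above free RNA and median levels of 122% and 68.7% of it. In library 2 its Col1a1 (2515 against 3536 CPM), Col1a2 (2501 against 3940 CPM) and Col3a1 (2394 against 2968 CPM) lay below free RNA.

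The 12 chains below 20 CPM in every gate of at least 1 library were Col4a3, Col6a4, Col6a5, Col6a6, Col7a1, Col8a2, Col13a1, Col17a1, Col19a1, Col22a1, Col24a1 and Col26a1. Col24a1, a fibrillar chain, was at 19.31 and 70.02 CPM in Schwann barcodes and 0 and 91.77 CPM in chondrocytes. Col7a1, the anchoring fibril of skin, and Col17a1 and Col13a1, transmembrane chains, did not pass 3 CPM in any gate, and Col26a1 peaked at 7.722 and 6.365 CPM in Schwann barcodes.

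Within the smooth muscle gate, the collagen share was higher where more fibroblast markers were on. The gate was described as a range by the number of fibroblast markers on after thinning to 3000 UMIs, which uses no collagen. In library 1, 877 barcodes had 0 on, 211 had 1 and 556 had 2 or more, and in library 2 these were 1223, 251 and 1137. The collagen share was 0.4574%, 1.242% and 2.056% along this range in library 1 and 0.5017%, 1.193% and 2.311% in library 2. Acta2, the contractile actin, was at 20170, 14390 and 7910 CPM and at 22460, 14810 and 7598 CPM, lower at each step as the collagen share was higher, in both libraries.

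The chains differed in their ratios along the range. Col1a1 stood at 344.1 and 382 CPM with no fibroblast marker on and at 4104 and 5503 CPM with 2 or more, 11.9-fold (11.5 to 12.3) and 14.4-fold (14.0 to 14.8). Col8a1 went from 53.85 and 23.31 CPM to 506.8 and 359.2 CPM, 9.41-fold (8.62 to 10.3) and 15.4-fold (13.7 to 17.3). Col3a1 was 7.84-fold and 6.41-fold higher, Col5a2 7.17-fold and 5.3-fold, Col14a1 6.4-fold and 6.73-fold, and Col12a1 5.09-fold and 5.39-fold. These 6 chains were several times higher where fibroblast markers were on.
Cartilage chains were higher there too. Col2a1 stood at 3.034 and 31.2 CPM with no marker on and at 30.07 and 1785 CPM with 2 or more, 9.91-fold (6.87 to 14.8) and 57.2-fold (51.9 to 63.2). Col10a1 was 23.8-fold and 20.2-fold higher, from 0.474 and 1.106 CPM. Col27a1 was 1.49-fold and 6.7-fold higher, and Col11a1 93.2-fold (54.2 to 176) higher in library 2, at 0.9588 and 89.38 CPM. Library 1 held 3 Col11a1 UMIs in smooth muscle and gives no ratio. With 2 or more markers on, Col2a1 lay below its free RNA level of 164.3 and 2198 CPM. In library 2 so did Col10a1 (22.37 against 29.2 CPM) and Col11a1 (89.38 against 100.6 CPM). Col27a1 lay above its free RNA level in both libraries, at 49.15 against 26.5 CPM and 145.9 against 102.5 CPM. In library 1 Col10a1 did too, at 11.3 against 7.066 CPM.
Of the basement membrane chains, Col4a1 differed little between the ends and Col4a6 ran in the opposite direction. Col4a1 was 1.28-fold (1.23 to 1.33) and 1.07-fold (1.03 to 1.12) higher with 2 or more markers on. Col18a1 stood at 751.8 and 744.6 CPM at the ends of the range in library 1, a ratio of 0.99 (0.959 to 1.02), and at 948.2 and 578.4 CPM in library 2, a ratio of 0.61 (0.591 to 0.629). Col4a6 was 2.72-fold and 1.8-fold higher in the barcodes with no fibroblast marker on. Col19a1, a fibre-associated chain, also ran against the others, 16.3-fold and 3.2-fold higher there, at 30.34 and 27.88 CPM against 1.867 and 8.705 CPM.

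**Figure D4:**
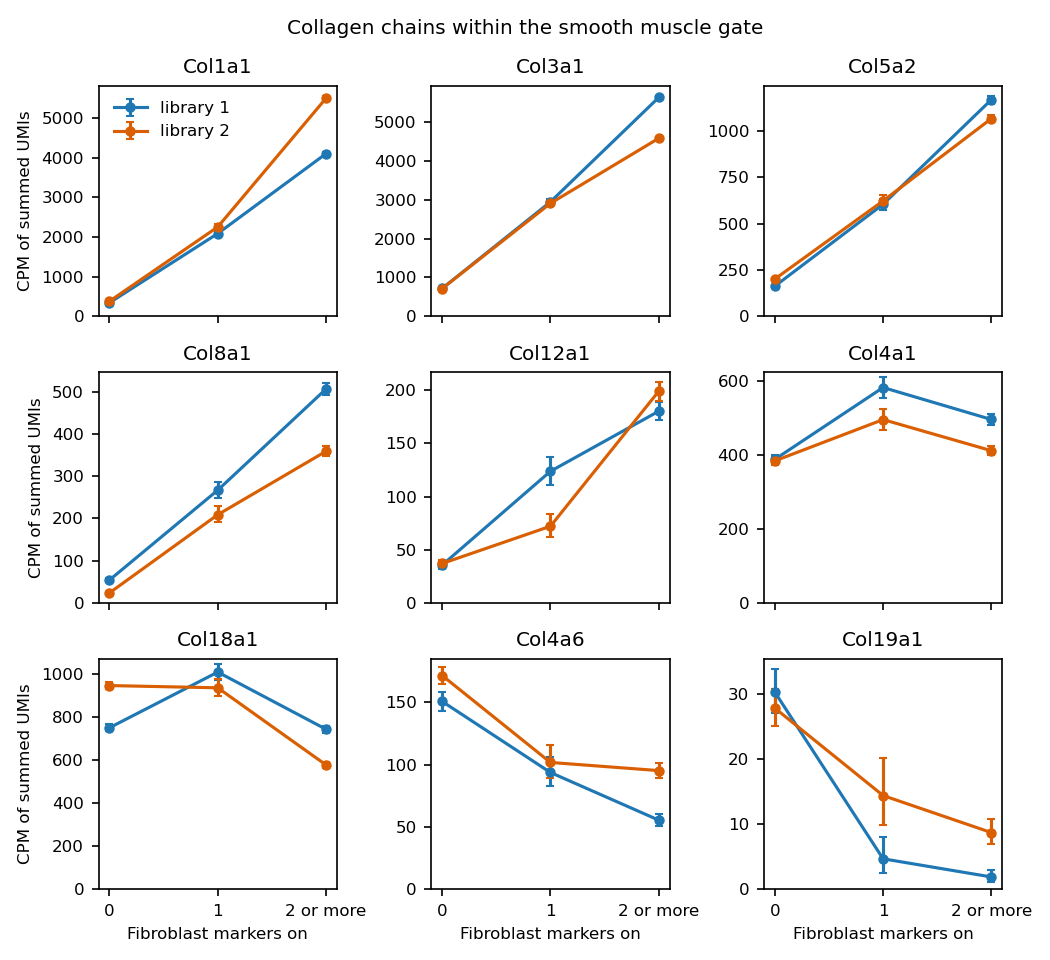
CPM of 9 chains (vertical axes from 0) within the smooth muscle gate by the number of fibroblast markers on (0, 1, or 2 or more), for library 1 (blue) and library 2 (orange) with exact 95% Poisson intervals. Col1a1, Col3a1, Col5a2, Col8a1 and Col12a1 are higher with more markers on, Col4a6 and Col19a1 lower, Col4a1 differs by at most 1.28-fold between the ends, and Col18a1 is lower at 2 or more in library 2 (ratio 0.61).

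Depth ran in opposite directions in the libraries, since the median was 11382 UMIs with 0 markers and 15785 with 2 or more in library 1, and 10266 and 4431 in library 2. Barcodes with 2 or more markers held more collagen in sum than the free RNA of their library (2.056% against 1.034%, and 2.311% against 1.739%). This did not hold for every chain, since Col2a1 was lower than in free RNA (30.07 against 164.3 CPM, and 1785 against 2198 CPM). No doublet caller was used, so droplets with a smooth muscle cell and a fibroblast can be among these barcodes. The part of doublets and of free RNA in this pattern was not tested.

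Between libraries, most chains of smooth muscle, fibroblasts and endothelium differed by less than 1.5-fold. In smooth muscle 5 of 22 chains were at least 1.5-fold higher in library 2 (22.7%, where 2.15% of all genes were) and 2 in library 1 (9.09%, where 2.54% were). In fibroblasts these were 2 and 1 of 24 (8.33% and 4.17%, where 1.6% and 1.81% of all genes were), in endothelium 3 and 1 of 17 (17.6% and 5.88%, where 4.22% and 1.29% were), and in macrophages 7 and 0 of 13 (53.8% and 0.0%, where 7.12% and 3.51% were). The median log2 ratio of library 2 to library 1 was 0.08 over the chains of smooth muscle and 0.02 over all its genes, -0.07 and 0.04 in fibroblasts, -0.03 and 0.08 in endothelium, and 0.62 and 0.06 in macrophages. Scaling by TMM, which balances the bulk of genes, in place of totals shifted library 2 by -0.15 (log2) in endothelium, -0.11 in macrophages and -0.14 in Schwann barcodes.

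The smooth muscle chains past that fold were Col2a1, Col11a1, Col11a2, Col27a1 and Col15a1, higher in library 2, and Col14a1 and Col8a1, higher in library 1. Col15a1 was 1.57-fold (1.5 to 1.644) higher, Col14a1 1.662-fold (1.592 to 1.735) and Col8a1 1.598-fold (1.537 to 1.662). With barcodes weighted equally, or without those over 20000 UMIs, neither Col14a1 nor Col8a1 was past 1.5-fold and 0 chains of smooth muscle were higher in library 1. Col11a1 stood at 0.1306 and 35.45 CPM, Col11a2 at 3.83 and 46.29 CPM, and Col27a1 at 40.82 and 69.73 CPM. Free RNA held 13.25 and 100.6 CPM, 22.96 and 154.5 CPM, and 26.5 and 102.5 CPM of these chains, also higher in library 2. Col2a1 was 49.14-fold (44.08 to 54.93) higher in library 2, at 14.45 and 709.9 CPM, and free RNA held 13.38-fold (12.02 to 14.93) more of it there, at 164.3 and 2198 CPM. The same chain was 4.91-fold higher in fibroblasts, 3.779-fold in macrophages and 5.06-fold in endothelium. In macrophages 1 barcode of library 1 held 283 of the 303 Col2a1 UMIs. The 7 macrophage chains were Col1a1, Col1a2, Col2a1, Col5a1, Col6a1, Col6a2 and Col6a3, all below free RNA, which was itself higher in library 2 for each of them.

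**Figure D5:**
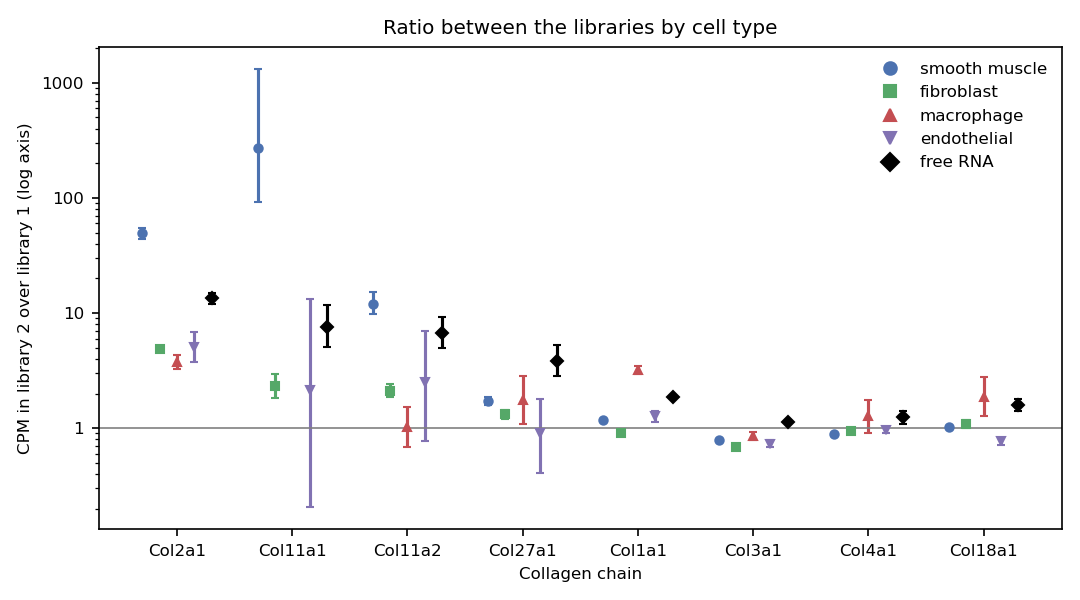
Ratio of CPM in library 2 to library 1 (log axis) for 8 chains in 4 gates and in free RNA, with exact 95% intervals and no point where library 1 had 0 UMIs of the chain (Col11a1 in macrophages). Col2a1, Col11a1, Col11a2 and Col27a1 lie above 1 in free RNA and in the smooth muscle and fibroblast gates, while Col1a1, Col3a1, Col4a1 and Col18a1 lie within 1.5-fold of 1 in the smooth muscle and fibroblast gates.

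The Col2a1 of smooth muscle was not spread evenly over its barcodes. The richest 1% of barcodes held 71.7% and 73.0% of these UMIs. After thinning, 4 and 174 smooth muscle barcodes (0.243% and 6.66%) had 5 or more Col2a1 UMIs, as did 23 and 90 fibroblasts (1.34% and 6.0%), 1 and 11 macrophages (0.291% and 4.09%) and 0 and 1 endothelial barcodes. Any Col2a1 UMI was found in 2.37% and 21.6% of thinned smooth muscle barcodes (5.66% and 34.4% before) and in 1.45% and 14.5% of macrophages (4.65% and 32.3%), a type not known for making it.
The 174 barcodes of library 2 had a median of 4238 UMIs, with 1 chondrocyte marker and 4 smooth muscle markers on. They held 1630 CPM of Acan, the main cartilage proteoglycan, 655.3 CPM of Sox9, 602.1 CPM of Col11a1 and 267 CPM of Col9a1, beside 5379 CPM of Acta2 and 1030 CPM of Myh11, the smooth muscle myosin. Col11a1 and Col9a1 were above their free RNA levels of 100.6 and 62.95 CPM. The 2061 smooth muscle barcodes with no Col2a1 UMI had a median of 9002 UMIs and held 62.78 CPM of Acan, 1.165 CPM of Col11a1, 17090 CPM of Acta2 and 2531 CPM of Myh11. Since these barcodes were picked by Col2a1, the other genes describe them and test nothing, and the part of free RNA and of doublets was not tested.

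Most genes that modify and fold collagen were highest in the chondrocyte gate, though none stood 4-fold above the next gate in both libraries. Of 20 genes for hydroxylation, glycosylation, folding and export, 19 reached 20 CPM in some gate of both libraries, and 14 of these were highest in the chondrocyte gate in both, where 7.53% of all genes at that level were. Serpinh1, the collagen chaperone HSP47, stood at 1431 and 1941 CPM there, 1074 and 1080 CPM in fibroblasts, 728.3 and 697.1 CPM in smooth muscle, 528.4 and 575.2 CPM in endothelium and 39.5 and 70.88 CPM in macrophages. Plod2, which hydroxylates lysines used in cross-links, was at 633.9 and 525.2 CPM in chondrocytes and 195.1 and 207.2 CPM in fibroblasts. Other leads of the chondrocyte gate lay within counting error. In library 1, Plod1 was at 89.14 CPM (52.83 to 140.9) against 88.81 CPM in Schwann barcodes, and P4hb at 445.7 CPM (358.4 to 547.8) against 397.4 CPM in fibroblasts. The next gate also lay inside the chondrocyte interval there for P3h1, P3h3, Crtap, Ppib and Sec23a. In library 2 it did so for Plod1, at 105.4 CPM (86.49 to 127.3) against 95.61 CPM, and P3h2, at 74.19 CPM (58.46 to 92.87) against 59.39 CPM. Tmem38b, an ion channel of the endoplasmic reticulum, was the 1 gene of this list highest in smooth muscle in both libraries, at 100.3 and 85.16 CPM. Colgalt1, which adds galactose to collagen, was highest in macrophages in library 1, at 145.9 CPM, and in chondrocytes in library 2, at 149.4 CPM.

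Most genes that act on collagen outside the cell were highest in fibroblasts or chondrocytes. Of 12 genes for processing and cross-linking, 9 reached that level and 8 had the same highest gate in both libraries, 5 in fibroblasts and 3 in chondrocytes, where 5.27% and 7.53% of all genes were. Pcolce, an enhancer of procollagen cleavage, was at 809.9 and 786.9 CPM in fibroblasts and 162.2 and 130.9 CPM in smooth muscle. Loxl1, a cross-linking oxidase of elastic tissue, was at 364.4 and 322.3 CPM and 255.2 and 220 CPM in those gates, and Lox at 255.8 and 273.3 CPM and 286 and 249.1 CPM. Lox did not keep its gate, since it was highest in smooth muscle in library 1 and in the chondrocyte gate in library 2, at 440.3 CPM. Of 10 receptors, 9 reached the level and 6 kept their gate, a share close to the 67.4% of all genes. Itga1 and Itgb1, which pair into a collagen-binding integrin, were highest in smooth muscle, at 153.3 and 147 CPM and at 962 and 953.8 CPM. The next gate was close, at 144.4 and 141.5 CPM for Itga1 and at 862.3 and 815.4 CPM for Itgb1. Ddr2, a receptor kinase for fibrillar collagen, was at 305.9 and 240.3 CPM in fibroblasts and 111.3 and 121.9 CPM in smooth muscle. Itga10, the integrin of chondrocytes, was at 64.38 and 109.3 CPM in the chondrocyte gate, and Lair1, an inhibitory receptor of leukocytes, at 126.6 and 138.6 CPM in macrophages and at most 3.861 CPM in every other gate.

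Across the 12 combinations of gate and library, the gene whose level was most like that of a chain was another collagen for 3 of the 17 fibrillar and network chains compared, Col1a1, Col2a1 and Col11a1. Pearson's r of log2(CPM + 5) with Col2a1 was highest for Col11a2, at 0.972, and second for Ibsp, a bone sialoprotein, at 0.953. For Col11a1 it was highest for Col9a1 at 0.986, and for Col1a1 it was highest for Col1a2 at 0.971. Col5a2 was most like Zeb1, a transcription factor, at 0.987, and Col4a1 most like Cd151, a tetraspanin, at 0.984. These values describe 12 points that share libraries and cell types, out of 10106 genes compared, and carry no test.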

How the data were processed

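Cells of 2 aorta samples were profiled with Chromium 3' v3 kits, per the labels' protocols. The authors deposited 1 unfiltered matrix of raw UMI counts for both samples, and its header names Cell Ranger 6.0.1 as the software. Beside it, bcl2fastq, Seurat and the mm10 build are listed, per the submitters' processing notes. The sources used here name no annotation for the counting. The matrix sums to 110257209 and 124266676 UMIs in libraries 1 and 2.

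Every gene of the symbol pattern is a member. Those at 20 CPM or more in some gate of both libraries were described with values, the others by counts and ranges. Col4a3, Col6a5, Col6a6, Col8a2, Col19a1, Col24a1 and Col26a1, below that level, were given values after these were seen. The members, markers, gene lists and gates were chosen with earlier results of these data known. The wider chondrocyte gate, the removal of the 1% of barcodes with most collagen, the smooth muscle range and the set of barcodes with 5 or more Col2a1 UMIs were added after levels had been seen. A marker was on at 2 or more UMIs, and 13 further lists of other cell types competed. Genes past a fold had 20 CPM in either library. Intervals are exact Poisson, binomial or conditional binomial intervals. Each barcode was thinned once to 3000 UMIs at random. UMIs are not independent of the cell, and intervals cover counting error only. edgeR 4.0.16 gave TMM factors for 1 alternative. The ratio code was tested on simulated data. Positions are from GENCODE vM21 on GRCm38, start regions from RefSeq on GRCm38.p6. Python 3.11.15, numpy 2.4.6, scipy 1.17.1 and pandas 2.3.3 were used.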

Additional observations from a re-analysis of the deposited data

How the results depend on the processing

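The highest gate shared by both libraries (26 of 32 chains) and the chains 4-fold above the next gate (10) stayed within 1.5 times their number under all alternatives. Collagen was a larger share in fibroblasts than in smooth muscle throughout, 1.87 and 1.55 times. These ratios were 1.94 and 1.53 with a margin of 3 markers, 1.86 and 1.53 with a margin of 1, 1.92 and 1.63 from 5000 UMIs, 1.85 and 1.52 from 2000 UMIs, 1.8 and 1.63 without barcodes over 20000 UMIs, 1.74 and 1.45 as means over barcodes, 1.95 and 1.63 with free RNA taken off, and 1.82 and 1.62 without the 1% of barcodes with most collagen. In library 1 they were 1.88 with 4 markers and 1.86 with a mitochondrial limit of 10%.

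Counts of chains past 1.5-fold between libraries depended more on settings. With a margin of 3, smooth muscle had 3 higher in library 2, fibroblasts 2 and endothelium 0 higher in library 1, macrophages 4 higher in library 2 and Schwann barcodes 7 higher in library 1. With a margin of 1, fibroblasts and endothelium had 5 each higher in library 2. At 10 CPM, smooth muscle had 9 and fibroblasts 8 higher in library 2, and endothelium 2 higher in library 1. At 50 CPM, smooth muscle had 3, fibroblasts 1, endothelium 1 and macrophages 4 higher in library 2, and endothelium 0 higher in library 1. With no filter on level, the counts higher in library 2 and library 1 were 17 and 4 in smooth muscle, 12 and 4 in fibroblasts, 16 and 2 in endothelium, and 23 and 1 in macrophages. Without barcodes over 20000 UMIs, those higher in library 1 were 0 in smooth muscle, 0 in fibroblasts, 5 in chondrocytes, 3 in endothelium and 7 in Schwann barcodes. As means over barcodes they were 0 in smooth muscle, 4 in chondrocytes, 0 in endothelium and 6 in Schwann barcodes, with 5 higher in library 2 in fibroblasts. With TMM scaling, 2 were higher in library 1 in fibroblasts and 3 in endothelium. With free RNA taken off, endothelium had 1 and 2 and macrophages 3 and 2 higher in library 2 and library 1. Without lymphatic barcodes endothelium had 2 higher in library 1, from 5000 UMIs macrophages had 3 higher in library 2, and without the 1% of barcodes with most collagen Schwann barcodes had 7 higher in library 1. The cause was not tested.

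No paired analysis was possible because each group has 1 sample and no column is tied to one. Depth limits the chondrocyte gate (12 barcodes in library 1) and the Schwann gate (258990 and 157108 UMIs in all), where counting error is largest and 1 barcode can set a level. Doublets were not removed.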
